A study of Mus musculus with 6 samples.

Results

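Kinesins, the motor proteins that step along microtubules with energy from ATP, were compared between 2 groups of sorted mouse breast cancer cells. Sorting, per the labels, rested on the surface proteins CD24 and CD29, and gave cells with both (CD24+CD29+) and cells with neither (CD24-CD29-). Each group was read on 3 Affymetrix Mouse430_2 arrays made from total RNA of cells kept in serum-containing medium. The labels call both populations breast cancer stem cells and name neither the line nor the tumour they came from, nor any treatment, genotype or age, while the design text describes 3 sets as independent and biologic. Whether these were separate cultures or separate sorts is not said, so p-values measure only the spread among these arrays, and some of it may be technical. The family was taken as every probe set with exactly 1 gene symbol in the platform's annotation that is Kif or Kifc followed by a number. This gave 104 of 34945 single-symbol probe sets, for 41 of 18193 genes. Of these genes, 12 were classed as mitotic, 15 as transport and 14 as other kinesins. CENP-E, a mitotic kinesin whose gene Cenpe has a different name, was set with the spindle partners.

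Mitotic kinesins build the spindle, move and hold chromosomes and carry out cytokinesis, and most are made in the G2 and M phases of the cycle. Transport kinesins carry vesicles, mitochondria and ciliary parts along microtubules in interphase, most of them toward plus ends, and are studied most in neurons. The remaining kinesins set microtubule length, act in cilia and centrioles, or have lost motor activity.

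The values were deposited on the log2 scale, and a difference is always CD24+CD29+ minus CD24-CD29-. Each gene was read by the brightest of its single-symbol probe sets on average, and _x_at probe sets, whose probes can bind other transcripts, were used only where a gene had no other. A gene is called higher or lower where the adjusted p of limma, a linear model fitted over all genes, was under 0.05 after Benjamini-Hochberg adjustment over 18193 genes. SE is the standard error of that fit. The calls were many: 70.8% of all genes passed, 34.4% higher and 36.5% lower, while 3.01% passed with at least 2-fold higher and 1.66% with at least 2-fold lower values. Arrays of a group correlated over genes at r = 0.998 to 0.999 and arrays of different groups at 0.974 to 0.978 (genes are not replicates). The number of arrays limits the precision, and the median SE over genes was 0.06. The added poly-A control RNAs differed between the groups by a mean of -1.08. Scaling to them would move the median of all genes from -0.04 to 1.05, so each lower value below is lower relative to other genes on the deposited scale and turns positive under that scaling.

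The cells are labelled as breast cancer cells, and the epithelial markers were bright, with Epcam at a mean of 14.11 and 14.13 and Krt8 at 13.50 and 13.67. Of 8 epithelial markers 3 were higher, among them the basal keratin genes Krt14 (1.99-fold) and Krt5 (1.57-fold), and 3 lower on the deposited scale, the luminal keratin genes Krt19 (-0.95), Krt18 (-0.42) and Krt8 (-0.17), all 3 positive when scaled to poly-A controls. Fibroblast markers were higher on the CD24+CD29+ arrays, 9 of 9 (8 after quantile normalization or cyclic loess), with a median of 0.69. Their summed level was 14.83 to 14.92 against 14.24 to 14.26 (log2 of the sum). Of 7 leukocyte markers, 4 were lower and none higher (8.67 to 8.78 against 9.18 to 9.19), though all 7 turn positive when scaled to poly-A controls, and Ptprc, their defining gene, was at 4.85 and 4.94. Of 6 endothelial markers, 2 were higher and 1 lower (7.91 to 8.05 against 7.82 to 8.05). Beside these counts, 34.4% of all genes were higher and 36.5% lower. The shares were 37.5% and 37.5% for epithelial and 33.3% and 16.7% for endothelial markers. They were 100% and 0% for fibroblast and 0% and 57.1% for leukocyte markers. Array values have no true zero, so no marker could be called absent, and the part of these markers in the kinesin results was not tested.

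The first comparison was of the mitotic kinesins. Of 12, 10 were higher in CD24+CD29+ cells, Kif15 was lower and Kif14 did not pass, where 34.4% of all genes were higher. The count depends on the class border. Kif2a and Kif2b, named like Kif2c, and Kifc5b, a copy related to Kifc1, were placed in the other class. As deposited none of them passed, at 0.04, -0.04 and -0.05. At least 2-fold higher values were found for 7 of the 12, against 3.01% of all genes. Of the 7, Kif11, Kifc1 and Kif20a stayed above 2-fold in every alternative processing. The lowest differences of Kif4, Kif20b, Kif18b and Kif22 were 0.89, 0.84, 0.82 and 0.16, which is below 2-fold. The median difference was 1.05, against -0.04 over all genes. The median fell to 0.87 after quantile normalization and 0.86 after cyclic loess, with 10 genes higher in each. The share of all genes that were higher depended on level: it was 28.0% at mean levels of 6 to 7, 49.6% at 7 to 8 and 58.8% at 8 to 9, and the 10 higher mitotic kinesins lay within these levels. With all probe sets of a gene averaged, Kif11 (1.27), Kif22 (1.04), Kif20b (0.84), Kif18a (0.66), Kif23 (0.26) and Kif2c (0.25) were higher by less. The groups did not overlap for 11 of 12, against 73.6% of all genes. In RNA from whole populations, fewer cells in division and less of each RNA per cell cannot be told apart.

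Kif11 encodes Eg5, the motor that pushes the spindle poles apart. It was read by probe set 1452314_at at 8.47, 8.41 and 8.27 on the CD24+CD29+ arrays and at 6.29, 6.28 and 6.38 on the CD24-CD29- arrays. Every CD24+CD29+ array thus lay above every other by more than 1 log2 unit, and the difference was 2.07 (SE 0.06, 4.19-fold, limma adjusted p = 3.2e-07). Its other probe sets were also higher, by 1.34 and 0.41. Kif22 encodes Kid, which binds DNA and pushes chromosome arms away from the poles. It stood at 7.17, 7.05 and 7.42 against 5.68, 5.54 and 5.28 on 1451128_s_at, a 3.28-fold difference (log2 1.71, SE 0.12). The size for Kif22 depended on the probe set: 1423813_at gave 1.23, while the brightest, 1437716_x_at, gave only 0.16 (SE 0.05, limma adjusted p = 0.024 over all probe sets).

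Kifc1, a minus-end motor that gathers spindle poles and extra centrosomes, was read at 7.20, 7.18 and 7.34 against 5.70, 5.92 and 5.66. This was a 2.79-fold difference (log2 1.48, SE 0.08), and its only probe set may also read the closely related copy Kifc5b. The probe set annotated to Kifc5b itself stood near the bottom of the scale, at 4.92 ± 0.10 against 4.97 ± 0.06 (SD, n = 3). The pair Kif20a and Kif20b act in cytokinesis, Kif20a by bringing the chromosomal passenger complex to the spindle midzone. Kif20a stood at 8.19, 7.88 and 8.18 against 6.66, 6.69 and 6.57 (2.72-fold, log2 1.44, SE 0.09). Kif20b stood at 8.14, 8.06 and 8.05 against 6.85, 6.86 and 6.85 (2.35-fold, log2 1.23, SE 0.04). In each of these genes the groups were far apart, and all 4 probe sets of Kif20b were higher, by 0.47 to 1.23.

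Kif4, a chromosome-bound motor that works with Prc1 to set the length of the midzone, was at 8.32, 8.08 and 8.15 against 7.22, 7.26 and 6.88 (log2 1.07, SE 0.11). Kif18b, which shortens astral microtubules, was at 9.05, 8.94 and 9.0 against 8.08, 7.82 and 8.0 (log2 1.03, SE 0.07). Both were thus just above 2-fold, at 2.09-fold and 2.04-fold. Kif18a, which damps the swings of chromosomes at the metaphase plate, was 1.79-fold higher (7.18 ± 0.11 against 6.34 ± 0.11, SD, n = 3). Kif23, the motor of the centralspindlin complex, was 1.60-fold higher on its brightest probe set. Of the others of Kif23, 1453748_a_at was higher by 0.20 and 1450827_at, at -0.11, did not pass.

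Kif2c encodes MCAK, a depolymerase that corrects wrong attachments of chromosomes. It was 1.61-fold higher on 1449060_at (6.66 ± 0.08 against 5.97 ± 0.11, SD, n = 3) and by 0.78 on the brightest, 1437611_x_at. It was the only mitotic kinesin with probe sets past the threshold in opposite directions, since 1454221_a_at was lower, at -0.49; the remaining one, 1432392_at, was at 0.016. The exceptions to the class were dim. Kif15, a partner of Eg5 in spindle assembly, stood at 5.44, 5.81 and 5.68 against 6.06, 5.96 and 5.93 (log2 -0.34, SE 0.09, limma adjusted p = 0.012). The call for Kif15 was lost after quantile normalization and cyclic loess, at -0.20 in each, and its difference was 0.74 when scaled to poly-A controls. Kif14, which acts in cytokinesis, stood at 4.76 ± 0.23 against 4.79 ± 0.07 (SD, n = 3; log2 -0.03, SE 0.11), at percentile 5.69 of all genes by mean level. Each of these genes had only 1 probe set.

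**Figure D1:**
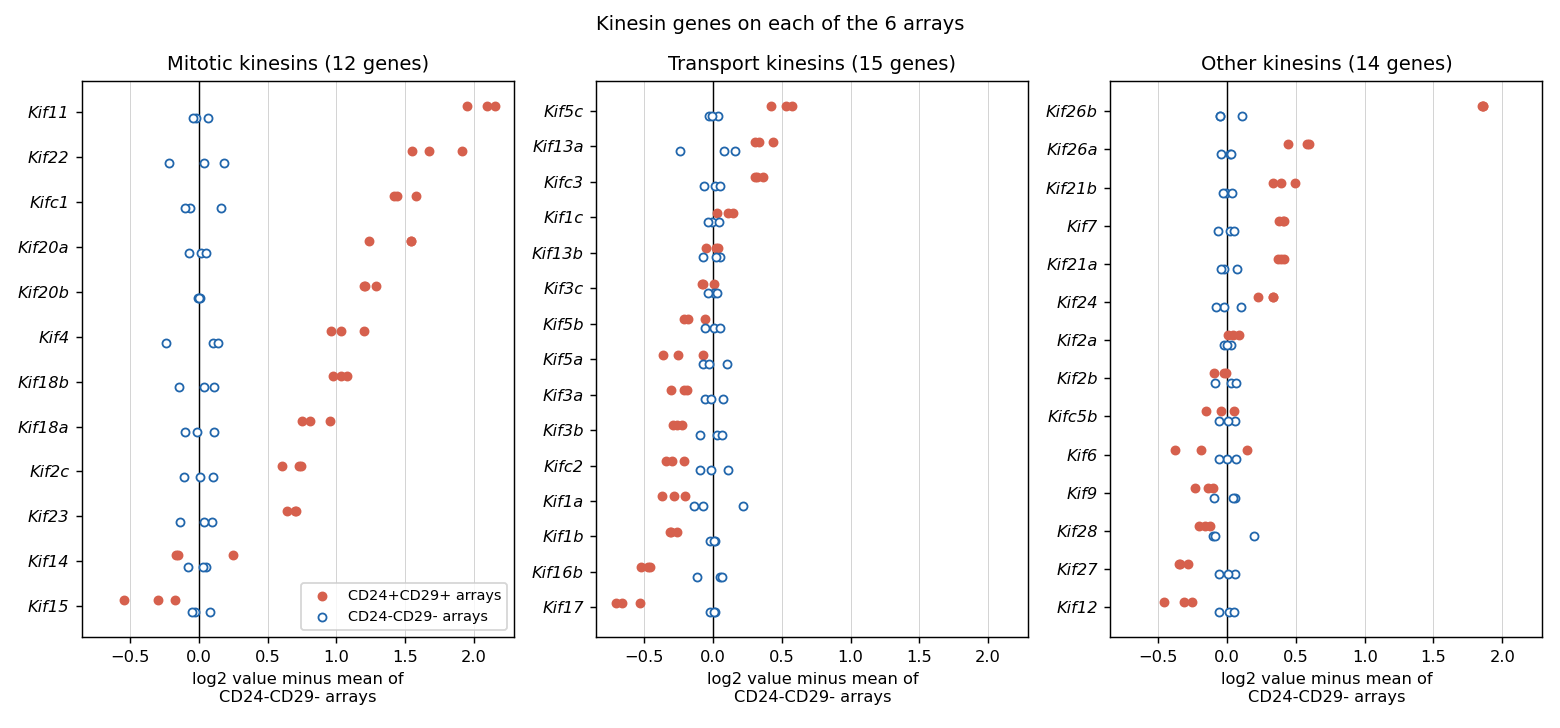
Each point is a kinesin gene on 1 array, as its log2 value minus the gene's mean on the 3 CD24-CD29- arrays, with filled points for CD24+CD29+ and open points for CD24-CD29- arrays. On the deposited scale 10 of 12 mitotic kinesins lie to the right with no overlap, whereas 9 of 15 transport kinesins were lower, a direction that turns when scaled to poly-A controls.

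**Figure D2:**
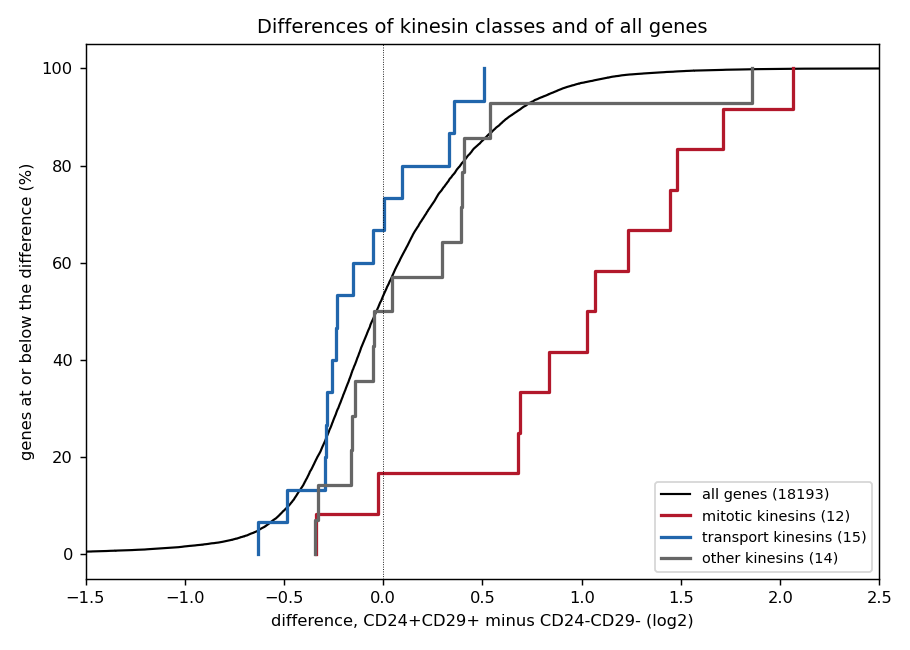
Lines give the share of genes (%) at or below each difference (log2) for all 18193 genes and for the 3 kinesin classes. The mitotic line lies to the right of that for all genes, with a median of 1.05 against -0.04, and the transport line crosses it with a median of -0.23, which is 0.85 when scaled to poly-A controls.

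Promoters of the mitotic kinesins were searched for elements known from genes of the G2 and M phases. These are the cell cycle homology region (CHR, searched as TTTGAA or TTCGAA), at which the DREAM and MuvB complexes bind, the CCAAT box of NF-Y, and GCGGGAA, the core of an E2F-type site. RefSeq promoters of mouse assembly GRCm38.p6 (250 bases before to 50 after the start site) were matched by symbol for 33 of 41 kinesin genes, with 37 promoters, and both strands were searched. A CHR was found in 10 of 11 mitotic promoters, in 1 of 12 transport promoters (10 genes), in 4 of 14 of the other class, and in 19.2% of all 32851 promoters. A CHR together with CCAAT was found in 7 of 11 mitotic, 0 of 12 transport, 4 of 14 other and 7.52% of all promoters. CCAAT, with or without a CHR, was in 7 of 11 mitotic, 4 of 12 transport, 6 of 14 other and 37.4% of all promoters, and each of the 7 mitotic ones also held a CHR. No mitotic promoter held GCGGGAA, which was in 2 of 14 other promoters and 4.60% of all. A match is a description of the letters, not a bound site.

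The position of the CHR was compared next. In 8 mitotic promoters it began within 30 bases of the start site, a distance chosen after the positions were seen, against 0 of 12 transport, 3 of 14 other (Kif24, Kif26b and Kifc5b) and 3.40% of all promoters. The sequences from 60 bases before to 30 bases after the start are shown for these 8, 5′ to 3′ on the gene's strand, because they carry the CHR beside the start. Capitals mark CHR matches (TTTGAA, or TTCAAA where it lies on the opposite strand) and CCAAT boxes (ATTGG on the opposite strand).
Kif11 (chr19:37376322-37376411, + strand): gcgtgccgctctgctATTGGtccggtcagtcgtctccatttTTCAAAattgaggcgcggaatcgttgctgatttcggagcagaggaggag
Kif22 (chr7:127042391-127042480, - strand): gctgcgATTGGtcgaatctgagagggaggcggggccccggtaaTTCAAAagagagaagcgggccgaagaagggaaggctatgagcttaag
Kifc1 (chr17:33890604-33890693, - strand): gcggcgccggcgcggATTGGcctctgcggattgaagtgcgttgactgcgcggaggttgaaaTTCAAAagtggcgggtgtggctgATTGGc
Kif20b (chr19:34922298-34922387, + strand): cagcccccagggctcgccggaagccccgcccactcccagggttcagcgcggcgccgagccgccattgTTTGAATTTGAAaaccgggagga
Kif4 (chrX:100626005-100626094, + strand): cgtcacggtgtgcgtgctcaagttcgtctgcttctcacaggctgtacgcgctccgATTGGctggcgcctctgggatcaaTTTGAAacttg
Kif18b (chr11:102925095-102925184, - strand): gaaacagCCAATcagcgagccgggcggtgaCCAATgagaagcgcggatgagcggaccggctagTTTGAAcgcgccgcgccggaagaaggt
Kif23 (chr9:61946770-61946859, - strand): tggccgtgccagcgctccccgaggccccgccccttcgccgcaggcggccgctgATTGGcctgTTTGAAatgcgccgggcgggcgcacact
Kif15 (chr9:122951021-122951110, + strand): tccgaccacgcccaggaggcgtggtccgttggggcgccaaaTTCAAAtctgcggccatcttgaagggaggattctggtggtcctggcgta

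In Kif11 the CHR began 19 bases before the start with a CCAAT box 45 bases before it, and in Kif22 these lay 17 and 54 bases before it. In Kif20b a pair of CHR matches began 8 and 14 bases after the start, with no CCAAT box in the promoter. Kif15 held a CHR 19 bases before its start like Kif11, and its probe set was lower. The matches of Kif2c and Kif14 lay farther from the start, at 103 and 228 bases before it. Kif18a, 1.79-fold higher, held none of the motifs in this window. Having the element and being higher were thus not the same list.

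**Figure D3:**
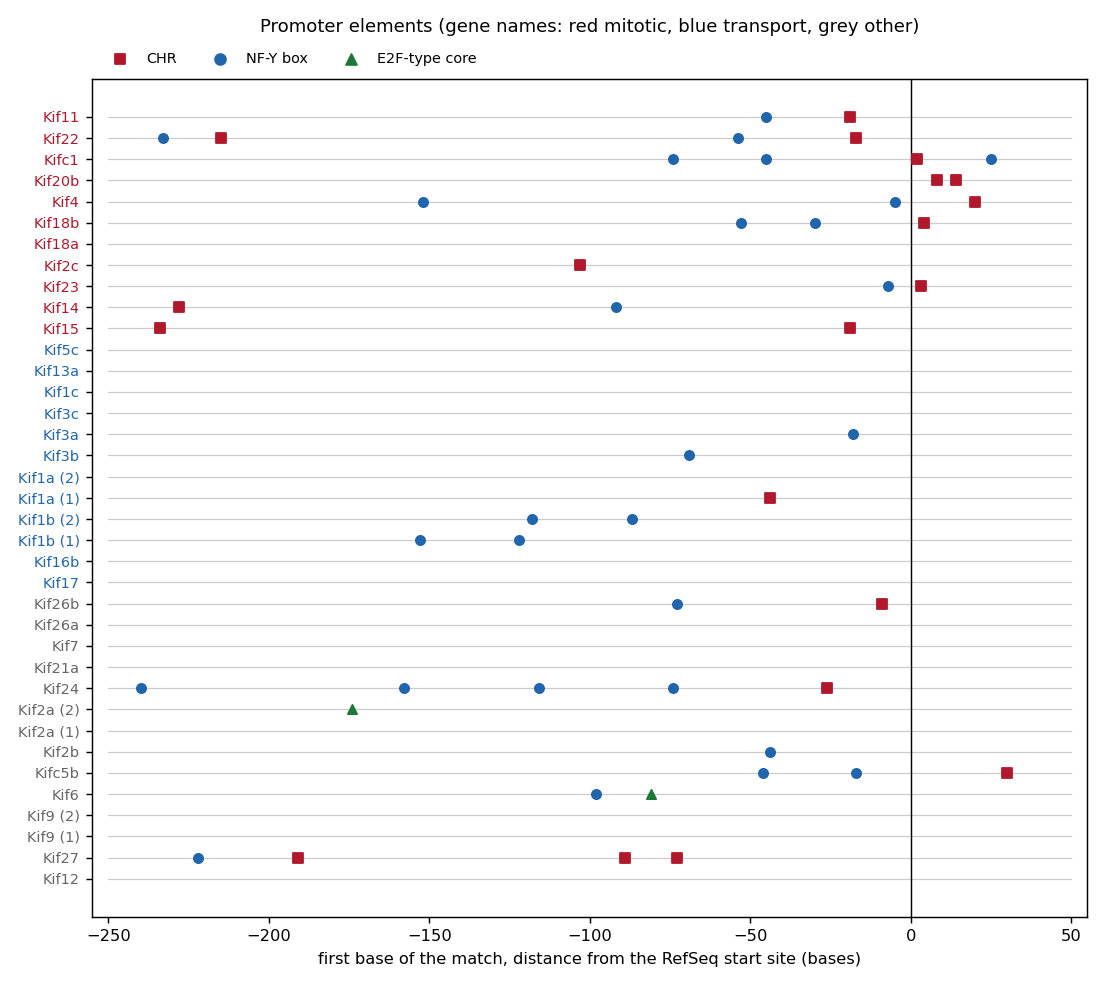
Each row is a RefSeq promoter, with genes in order of their difference within the mitotic (red), transport (blue) and other (grey) classes and numbers in brackets for genes with several promoters. Symbols give the first base of each CHR, CCAAT (NF-Y box) and E2F-type core match as the distance from the start site in bases. CHR matches cluster beside the start in 8 of 11 mitotic promoters.

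Genes of proteins that load, hold or regulate mitotic kinesins were compared next. Of 18 spindle partners, 18 were higher and 10 at least 2-fold, where 34.4% of all genes were higher and 3.01% at least 2-fold. Most of the 18 lay at mean levels of 8 to 10, where more of all genes were higher (58.8% at 8 to 9 and 57.7% at 9 to 10). The median of the spindle partners was 1.08 (0.99 after quantile normalization). Cenpe, the kinesin that carries chromosomes to the plate, was 1.96-fold higher (7.56 against 6.58; log2 0.97, SE 0.06). Tpx2, which recruits Kif11 and Kif15 to the spindle, was 2.49-fold higher. Racgap1, the partner of Kif23 in centralspindlin, was 2.65-fold higher and Ect2, which centralspindlin activates, 1.48-fold. Prc1, which guides Kif4, was 4.49-fold higher. Incenp and Aurkb, of the passenger complex that Kif20a carries, were higher by 2.87-fold and 2.12-fold. Also at least 2-fold higher were Nusap1 (3.69-fold), Bub1 (3.37-fold), Plk1 (3.20-fold), Kntc1 (2.55-fold) and Aurka (2.12-fold). Aurka was below 2-fold after quantile normalization (log2 0.89) and cyclic loess (log2 0.87). Markers of cycling cells were higher on the same arrays, 9 of 9 against that 34.4%, with a median of 0.65 (summed level 13.87 to 13.90 against 13.01 to 13.03), from Cdk1 at 3.66-fold and Top2a at 3.50-fold to Mki67 at 1.57-fold and Mybl2 at 1.16-fold. Their part in the difference of the mitotic kinesins was not tested.

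The next comparison was of the transport kinesins, which differed less and mostly the other way. Of 15, 3 were higher, 9 lower and 3 did not pass, where 34.4% of all genes were higher and 36.5% lower. Most of the 15 lay at mean levels above 7, where 41.9% to 58.8% of all genes were higher. None of the 15 reached 2-fold, and their median was -0.23, or 0.85 when scaled to poly-A controls. Relative to the median of all genes, the transport median was -0.20 and the mitotic median 1.08, values that such scaling cannot change. The groups did not overlap for 11 of 15, against 73.6% of all genes. The direction held less firmly than in the mitotic class: of the 9 lower genes, Kif17, Kif16b, Kif3a and Kif3b kept their call under each of 15 alternatives other than scaling to the poly-A controls, where all 9 turned. Leaving out 1 array in turn gave 7 or 8 lower genes.

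Kif17, a plus-end motor of cilia and dendrites, had the largest difference of the class. It was read at 6.10, 6.14 and 6.28 against 6.82, 6.79 and 6.81 (log2 -0.63, SE 0.05, limma adjusted p = 3.1e-05), or 0.45 when scaled to poly-A controls. All 3 of its probe sets were lower. Kif16b, which carries early endosomes, was at 8.82, 8.77 and 8.84 against 9.35, 9.36 and 9.18 (log2 -0.49, SE 0.06, or 0.60 under that scaling). A second probe set of Kif16b was lower by the deposited values, at -0.37, and the remaining one, at -0.096, did not pass. For both genes the groups did not overlap, and the means of their probe sets were at -0.39 and -0.32.

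Kif3a and Kif3b form the motor of intraflagellar transport, which builds cilia, and both were lower on the deposited scale, at -0.24 and -0.26 (0.85 and 0.82 when scaled to poly-A controls). After quantile normalization they were at -0.44 and -0.46. Of 4 probe sets of Kif3a, 3 were lower and none higher. Those of Kif3b differed: 2 were lower, at -0.26 and -0.48, 1 was higher by 0.15 and 1, at 0.03, did not pass, and their mean was lower, at -0.14. Kif3c, the alternative partner of Kif3a, did not pass on its brighter probe set (9.17 ± 0.05 against 9.22 ± 0.04, SD, n = 3), while the other, 1434947_at, was lower, at -0.33. The brighter one was lower, at -0.24, after quantile normalization, where it passed, and at 0.0053 after median centring, where it did not.

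The heavy chains of conventional kinesin, Kif5a, Kif5b and Kif5c, did not move together. Kif5c, best known from neurons, was higher, at 8.18, 8.02 and 8.13 against 7.57, 7.64 and 7.59 (1.42-fold, log2 0.51, SE 0.05; 0.32 after quantile normalization and 0.29 as the mean of its probe sets). Its second probe set was higher by 0.67 and the 2 dimmest, at 0.05 and -0.08, did not pass. Kif5b, the form found in most tissues, was at 10.11, 9.98 and 9.95 against 10.17, 10.21 and 10.10, and the groups overlapped (log2 -0.15, SE 0.06, limma adjusted p = 0.044, or 0.93 when scaled to poly-A controls). Its 6 probe sets disagreed, with 1418427_at higher by 0.38, 1418431_at lower at -0.23, and 4 not past the threshold of the fit over probe sets, at -0.15, 0.02, -0.15 and 0.11. Leaving out any of 4 arrays (CD24+CD29+ replicate 2 or 3, or CD24-CD29- replicate 1 or 2) ended the call of Kif5b, as did median centring and the mean of its probe sets, whereas it was lower by more after quantile normalization (-0.30) or cyclic loess (-0.31). Kif5a, a neuronal form, was dim (5.32 ± 0.15 against 5.55 ± 0.09, SD, n = 3; limma adjusted p = 0.034), with all 3 probe sets lower, at -0.23, -0.40 and -0.20. Its call ended without CD24+CD29+ replicate 1 or 3 or CD24-CD29- replicate 1 or 3, with replicate number as a block, and after quantile normalization, cyclic loess or median centring.

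Kif1b, which carries mitochondria and precursors of synaptic vesicles, had the most divided probe sets. The brightest, 1451200_at, stood at 10.99, 10.98 and 11.03 against 11.31, 11.28 and 11.30 (log2 -0.29, SE 0.04 in the fit over genes, or 0.79 when scaled to poly-A controls). By contrast 1455182_at stood at 8.59, 8.34 and 8.45 against 7.75, 7.48 and 7.35, and 1451642_at at 8.24, 8.15 and 8.19 against 7.38, 7.31 and 7.33. The groups did not overlap on any of these 3 and the last pair were higher, by 0.94 and 0.85. Of its 7 probe sets, 3 were higher (1425270_at by 0.41), 3 lower (1423995_at at -0.36 and 1451762_a_at at -0.38) and 1, 1423994_at at -0.08, did not pass. The mean of its probe sets was higher, by 0.15. What transcripts each probe set reads was not analysed here. Kif1b counts among the lower genes by its brightest probe set only, and no direction is given for the gene as a whole.

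Kif1a, a neuronal relative, was dim and lower (5.65 ± 0.08 against 5.94 ± 0.19, SD, n = 3; limma adjusted p = 0.028, or 0.80 higher when scaled to poly-A controls), and its call ended without CD24+CD29+ replicate 1 or 2 and after quantile normalization, cyclic loess or median centring. Kif1c, which carries dense-core vesicles, did not pass on its brightest probe set (9.82 ± 0.06 against 9.73 ± 0.04), whereas 2 of its other 3 were lower, at -0.59 and -0.29. After median centring the brightest passed as higher (0.15), and the mean of its probe sets was lower (-0.18). Kif13a, a carrier of endosomes, stood at 8.09, 8.06 and 8.19 against 7.92, 7.84 and 7.52 (log2 0.36, SE 0.10). That call was lost after quantile normalization and cyclic loess (0.17 in each) and with the mean of its probe sets (0.10), and of its other probe sets 1439532_s_at was higher by 0.66, 1442252_at and 1451890_at were lower, at -0.27 and -0.19, and 1447853_x_at, at -0.05, did not pass. Its relative Kif13b stood at 8.88, 8.79 and 8.86 against 8.89, 8.77 and 8.86, and none of its 4 probe sets passed. After quantile normalization or cyclic loess Kif13b was past the threshold and lower, at -0.21 in each.

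The minus-end motors of the class split. Kifc3, linked to apical transport and to adherens junctions in epithelial cells, was at 9.31, 9.36 and 9.32 against 9.01, 9.05 and 8.94 (1.26-fold higher, log2 0.33, SE 0.05). Its difference was 0.14 after quantile normalization and 0.13 after cyclic loess, still past the threshold. Kifc2, known from neurons, was lower on 1426493_a_at (-0.29, or -0.44 after quantile normalization and 0.80 when scaled to poly-A controls) and higher on 1421312_a_at (0.33), probe sets of about the same brightness. Its count among the lower genes thus rests on 1426493_a_at only. Of 9 neuronal markers, read here because neurons are rich in transport kinesins, 2 were higher, the dim Tubb3 by 2.14-fold and Stmn2 by 1.75-fold. On the deposited scale 4 were lower: Map2 (-0.27), which was the brightest of the 9, Syp (-0.29), Syt1 (-0.44) and Rbfox3 (-0.49). The number lower was 2 after quantile normalization and 0 when scaled to poly-A controls. Of all genes, 34.4% were higher and 36.5% lower as deposited.

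**Figure D4:**
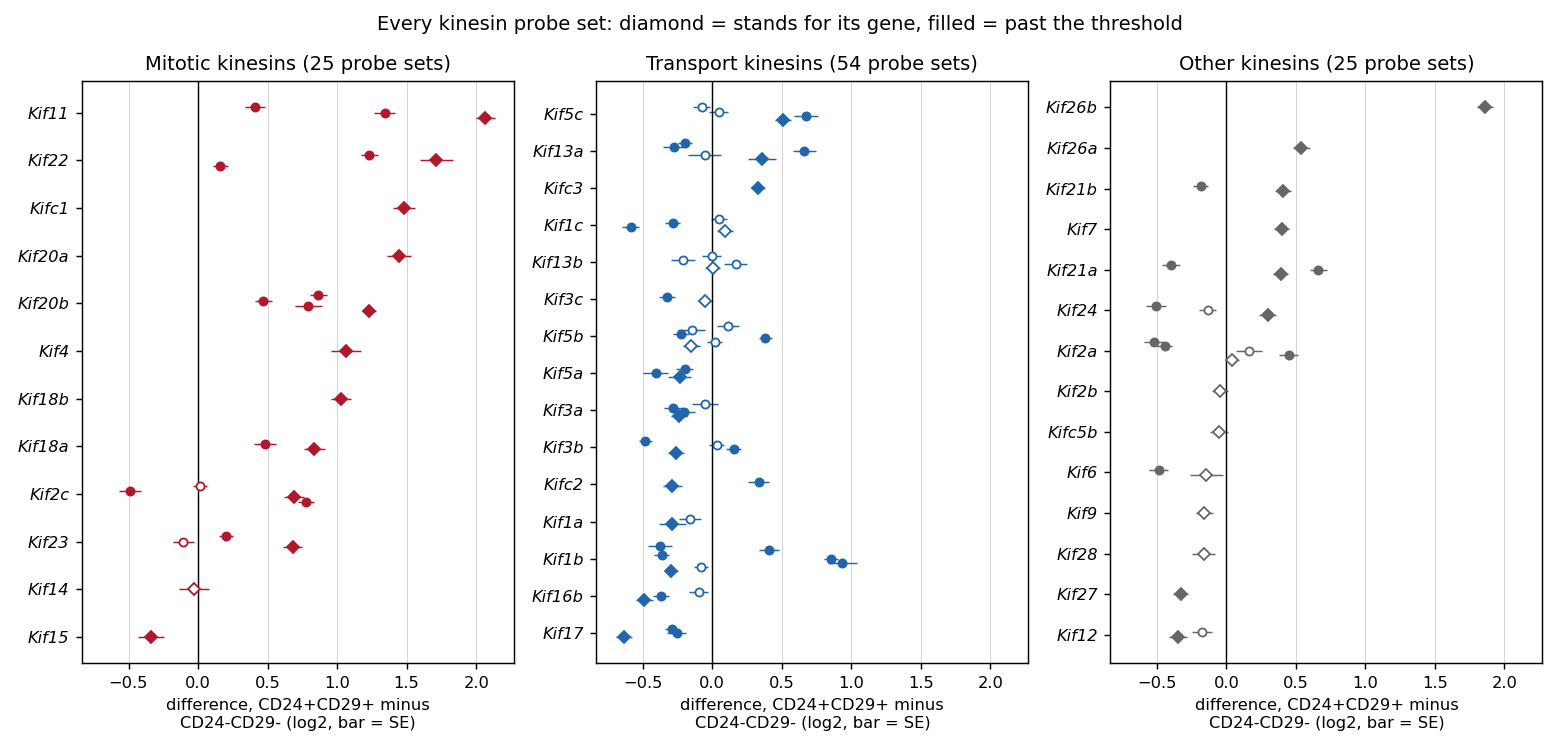
Each symbol is 1 of 104 kinesin probe sets, placed at its difference (log2) with its SE, with diamonds for the probe set that stands for the gene and filled symbols past the threshold over all probe sets. Of 25 mitotic probe sets 20 were higher, whereas the 54 transport probe sets held 11 higher and 24 lower ones on the deposited scale, all 24 of which turn when scaled to poly-A controls.

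Counted over probe sets rather than genes, 20 of 25 mitotic probe sets were higher and 2 lower, where 29.2% of all 45037 probe sets were higher and 34.8% lower (63.9% in either direction), and the groups did not overlap on 68.2%. At least 2-fold higher were 9 mitotic, 0 transport and 1 other probe set, against 2.29% of all, and none was 2-fold lower, against 1.15% of all. Transport kinesins had 11 higher, 24 lower and 19 not past the threshold of 54, and the other class 8 higher, 8 lower and 9 not past it of 25. Probe sets past the threshold in opposite directions were found for 10 of 26 kinesin genes with several probe sets: Kif2c among mitotic genes, Kif1b, Kif3b, Kif5b, Kif13a and Kifc2 among transport genes, and Kif2a, Kif21a, Kif21b and Kif24 among the others.

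Of the 14 other kinesins, 6 were higher, 3 lower and 5 were not past the threshold, where 34.4% of all genes were higher and 36.5% lower. Their median was -0.00040. One member stood apart. Kif26b, an atypical kinesin that binds microtubules without motor activity and acts in cell adhesion and polarity during development, was read at 10.61, 10.62 and 10.61 against 8.70, 8.86 and 8.70. The groups were separated by 1.86 (SE 0.05, 3.63-fold, limma adjusted p = 2.9e-07), second in size only to Kif11 in the family. Its relative Kif26a was at 7.98, 7.83 and 7.96 against 7.33, 7.40 and 7.41 (1.45-fold). Each was read by 1 probe set. The Kif26b promoter also held a CHR, 9 bases before the start, with a CCAAT box 73 bases before it and outside the stretch shown, which is set beside the promoters of Kif17 and Kif16b, which held none of the motifs.
Kif26b (chr1:178529065-178529154, + strand): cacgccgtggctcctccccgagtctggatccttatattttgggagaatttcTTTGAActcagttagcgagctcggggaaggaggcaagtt
Kif17 (chr4:138262191-138262280, + strand): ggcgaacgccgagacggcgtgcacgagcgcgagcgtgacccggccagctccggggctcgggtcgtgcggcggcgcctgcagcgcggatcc
Kif16b (chr2:142901435-142901524, - strand): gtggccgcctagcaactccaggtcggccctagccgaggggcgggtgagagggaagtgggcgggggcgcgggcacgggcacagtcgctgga

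Kif21a and Kif21b, which halt microtubule growth, were both higher on their brightest probe sets. Kif21b stood at 8.84, 8.69 and 8.74 against 8.35, 8.39 and 8.32 (log2 0.40, SE 0.05) and Kif21a at 8.18, 8.13 and 8.16 against 7.84, 7.74 and 7.72 (log2 0.39, SE 0.05). After quantile normalization both were at 0.20, and with all probe sets averaged Kif21a was at 0.22 and Kif21b at 0.11, still past the threshold. Each also had a dim probe set that was lower, at -0.40 for Kif21a and -0.19 for Kif21b, and Kif21a had another that was higher by 0.66. Kif7, which works in the cilium in Hedgehog signalling, was at 7.38, 7.37 and 7.34 against 6.99, 7.01 and 6.90 (log2 0.40, SE 0.05). Kif24, which restrains the growth of cilia from centrioles, stood 0.30 higher by its brightest probe set. Of its others, 1 was lower at -0.50, 1 did not pass at -0.13, and the mean of the 3, at -0.11, did not pass.

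Kif2a, a depolymerase and relative of Kif2c, did not pass on its brightest probe set (9.10 ± 0.04 against 9.06 ± 0.02, SD, n = 3), but was past the threshold and lower after quantile normalization (-0.15) or cyclic loess (-0.16). Of its other probe sets 1450052_at was higher by 0.45, 1454107_a_at and 1432072_at were lower, at -0.44 and -0.52, and 1452499_a_at, at 0.16, did not pass. The remaining members were dim. Kif12 and Kif27 were lower on the deposited scale, at -0.34 and -0.33 (0.74 and 0.76 when scaled to poly-A controls; -0.23 and -0.18 after cyclic loess). Kif9 was lower by the least, at -0.16 (adjusted p = 0.045 by limma), a call that ended after quantile normalization, cyclic loess or median centring, with an intensity trend in the variance, and without any of 4 arrays (CD24+CD29+ replicate 1 or 3, or CD24-CD29- replicate 1 or 2). Kif2b, Kif6, Kif28 and Kifc5b did not pass, with differences of -0.04 to -0.16, though a second probe set of Kif6 was lower, at -0.49, and so was the mean of its 2 probe sets, at -0.31.

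The partners of transport kinesins and the opposing motor gave the last comparison. Of 16 measured light chains, adaptors and cargo receptors, 7 were higher and 4 lower, where 34.4% of all genes were higher and 36.5% lower, and the median was 0.00 (1.08 when scaled to poly-A controls). The balance turned after quantile normalization, with 5 higher and 6 lower, and after cyclic loess, with 5 and 7. Rhot1, which ties mitochondria to kinesin, was 2.54-fold higher (9.76 against 8.41; log2 1.35, SE 0.06). The adaptor gene Mapk8ip3, the lysosomal adaptor gene Plekhm2 and the light chain gene Klc1 followed at 1.58-fold, 1.55-fold and 1.5-fold. Trak1, the adaptor between Rhot1 and kinesin, was lower at -0.53 and Mapk8ip2 and Kidins220 at -0.54 and -0.22, all 3 positive under that scaling. Of 24 genes of dynein, dynactin and their adaptors, the motor toward minus ends, 8 were higher and 11 lower, and none reached 2-fold. The shares were 33.3% and 45.8%, against 34.4% and 36.5% of all genes. Most of the 24 lay at mean levels above 9, where 41.9% to 57.7% of all genes were higher. After median centring 8 of the 24 were higher and 8 lower. The median was -0.08 (-0.17 after quantile normalization, 1.01 when scaled to poly-A controls). Actr1a, which forms the dynactin filament, was 1.77-fold higher, the adaptor gene Hook2 1.65-fold and the heavy chain gene Dync1h1 1.56-fold. The light chain genes Dynll2 and Dynlt3 were lower at -0.68 and -0.54 and the adaptor gene Hook3 at -0.52, and all 3 turn positive under that scaling.

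**Figure D5:**
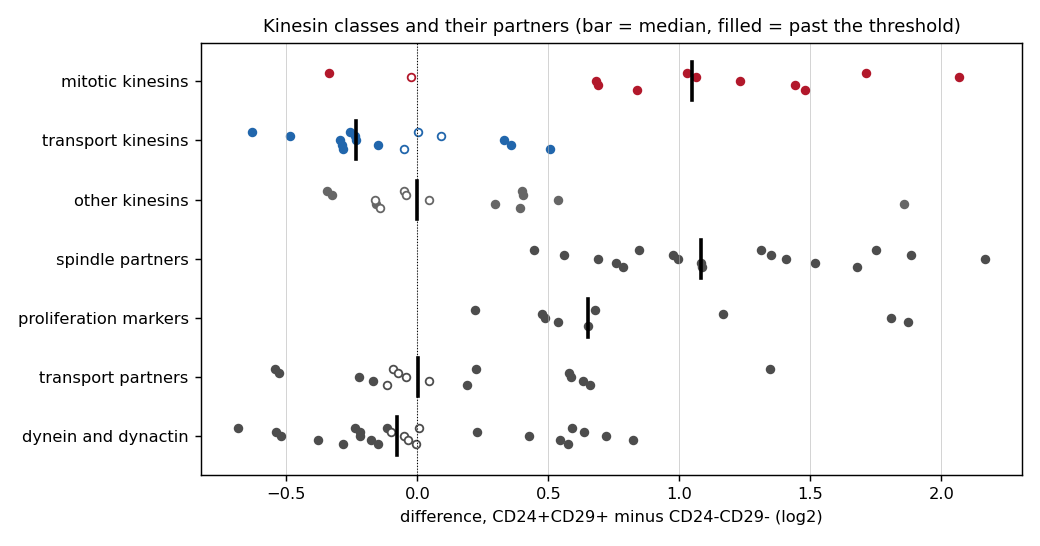
Each point is a gene's difference (log2) in the 3 kinesin classes and in the lists of partners and markers, filled where it passed the threshold, and black bars are medians. Mitotic kinesins and spindle partners have medians of 1.05 and 1.08, whereas those of transport kinesins, their partners, and dynein and dynactin lie from -0.23 to 0.00 (0.85 to 1.08 when scaled to poly-A controls).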

How the data were processed

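The deposited values are log2 values per probe set of 6 arrays, for which the authors name RMA and Partek, per the submitters' processing notes. RMA as a method corrects background, normalizes between arrays and summarises probes; the versions, settings and genome build were not given in the sources used here. Gene symbols are those of the platform annotation. Of 45101 probe sets, 64 were controls, 34945 had 1 symbol, 932 several and 9160 none, and 1 kinesin probe set with several symbols was left out. Tests used limma (version 3.58.1, R version 4.3.3; lmFit, then eBayes without trend or block) over 18193 genes and again over 45037 probe sets; the script was tested on simulated data. Values of each array are given for members past 2-fold and for the 5 largest called differences of each class; all probe sets are given where members' probe sets disagree. The members, classes and lists were chosen with earlier results of these data known. The transport partner list held both names of Kifbp, and of all lists only measured genes were used. Alternatives were other normalizations, probe set choices, filters, an intensity trend, a replicate block and leaving out each array. Arrays carry no detection calls, so no fold is a bound. Protein sequences were not used here.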

Additional observations from a re-analysis of the deposited data

How the results depend on the processing

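All 10 higher mitotic kinesins kept their call in each of 16 alternatives that gave them a value. Scaling to the poly-A controls (median over all genes 1.05, against -0.04) left 0 mitotic, 0 transport and 0 other genes lower, with 15 transport and 14 other genes higher and medians of 2.13, 0.85 and 1.08. It turned Kif12 (0.74), Kif14 (1.06), Kif15 (0.74), Kif16b (0.60), Kif17 (0.45), Kif1a (0.80), Kif1b (0.79), Kif27 (0.76), Kif28 (0.92), Kif2b (1.04), Kif3a (0.85), Kif3b (0.82), Kif3c (1.03), Kif5a (0.85), Kif5b (0.93), Kif6 (0.94), Kif9 (0.93), Kifc2 (0.80) and Kifc5b (1.03). Of called genes 48.5% were higher as deposited, 55.6% after median centring and 99.0% under that scaling.

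Quantile normalization left 0 mitotic genes lower with a median of 0.87, and turned Kif13b (-0.21), Kif14 (0.079), Kif1c (-0.063), Kif2a (-0.15), Kif2b (0.037) and Kifc5b (0.073). Cyclic loess left 0 lower with a median of 0.86, and turned Kif13b (-0.21), Kif14 (0.10), Kif1c (-0.085), Kif2a (-0.16), Kif2b (0.063) and Kifc5b (0.080). Median centring turned Kif14 (0.029), Kif2b (0.010), Kif3c (0.0053) and Kifc5b (0.0044), none of them past the threshold as deposited. With all probe sets of a gene averaged, the transport median was -0.14, and Kif13b (-0.010), Kif1b (0.15), Kif1c (-0.18), Kif24 (-0.11), Kif2a (-0.062) and Kifc2 (0.024) turned. The cause of these changes was not tested.

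Fewer genes were measured without dim ones. Without the dimmest 25% of genes 1 other kinesin was lower with a median of 0.39. Without the dimmest 40%, 0 mitotic and 0 other kinesins were lower, with medians of 1.23 and 0.40, and 65.9% of called genes were higher.

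Leaving out 1 array in turn called 11758 to 12407 genes against 12889, with mitotic medians of 1.00 to 1.10 (10 higher and 1 lower), transport medians of -0.23 to -0.18 (3 higher, 7 to 8 lower) and other medians of 0.0051 to 0.014 (6 higher, 2 to 4 lower). Differences of Kif13b (-0.032 to 0.031), Kif14 (-0.16 to 0.045) and Kifc5b (-0.099 to 0.0022) changed sign. Deviations of same-numbered arrays correlated at 0.22, -0.05 and 0.04, so the numbers were not taken to pair the samples, and 3 of 6 arrays correlated best with their own number. With replicate number as a block 12867 genes and 28954 probe sets (28786 without it) passed, and of the kinesins only Kif5a lost its call. Genes in the dim range of the arrays, 7 of 41 kinesins in the dimmest 25%, limit the other class most.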
